A study of Arabidopsis thaliana with 6 samples.

Results

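Mitochondrial RNA of Arabidopsis thaliana rps10 mutants was compared with that of wild type. The data were 3 RNA libraries, 1 each from wild type, from the P2 phenotype and from the P3 phenotype, out of 6 libraries in the series, chosen by their titles. The 24 mitochondrial genes with deposited RNA levels and the classes into which each library's reads were sorted are all described. All plants were of ecotype Col-0 and mitochondria came from the youngest leaves at 9 to 10 weeks. Shared growth conditions were 3 days of cold, 11 days on plates, 22 °C and days of 8 h light and 16 h dark. Wild-type plants carried no labelled mutation, and P2 and P3 plants both had the genotype label Rps10 +/-, so they are phenotypes under 1 genotype label. That label alone does not give the allele, and P2 and P3 are not treated as independent alleles here. Mutant seedlings were raised on 50 mg per litre kanamycin and each mutant isolation used about 15 g of leaves, against about 30 g for wild type, so genotype, kanamycin and leaf amount cannot be told apart. Every library pooled 15 preparations of mitochondria, treated with chloramphenicol at 100 µg/ml on thawing and depleted of rRNA with a Ribo-Zero kit. With 1 library per kind of plant there was no replicate check, no SD and no test, and differences below are between libraries.

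Plant mitochondria keep a small genome for a few subunits of the respiratory chain and of the ATP synthase, for proteins that attach heme to cytochrome c, for some ribosomal proteins and for their own rRNAs and tRNAs. All other proteins of the mitochondrial ribosome come from nuclear genes. RPS10 is one of these nuclear genes and encodes protein S10 of the small subunit. The study asked how a shortage of S10 affects translation and splicing, and the RNA libraries show how transcripts from the mitochondrial genome were divided among genes. RPS10 itself is nuclear and was not analysed here, because the gene levels cover mitochondrial genes only, so the label of the mutant could not be checked against its own transcript.

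The origin of the reads was examined first. After trimming and filtering the library sizes were 4304795 reads in wild type, against 8371171 in P2 and 5670742 in P3. Mitochondrial sequences made up 87.4% of them in wild type (95% Wilson interval 87.3 to 87.4), against 96.4% in P2 (96.4 to 96.4) and 95.9% in P3 (95.9 to 95.9), so the labelled source dominated in each library. All intervals of read shares cover counting error only, since PCR copies are not independent molecules and variation between pools is unknown. Reads outside tRNA and rRNA sequences showed 14.3 mitochondrial reads per plastid read in wild type, against 65.2 in P2 and 67.1 in P3. They showed 16.8 mitochondrial reads per nuclear read in wild type, against 109 in P2 and 189 in P3. The mutant libraries thus stood together against wild type for plastid reads, while P3 held a lower share of nuclear reads than P2. Levels in TPM (a length-corrected share of the genes in the file) were computed over mitochondrial genes alone, so plastid and nuclear reads do not enter them directly. The part of this difference in purity in the gene ratios below was not tested.

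The remaining other-compartment reads also differed in kind. tRNA and rRNA made up 5.55% of all plastid reads in wild type (5.46 to 5.64), against 10.6% in P2 (10.4 to 10.8) and 13.7% in P3 (13.5 to 14.0). Of all nuclear reads, tRNA and rRNA made up 10.5% in wild type (10.4 to 10.6), against 15.6% in P2 (15.3 to 15.8) and 16.4% in P3 (16.0 to 16.9). Of all mitochondrial reads they made up 13.1% in wild type (13.1 to 13.2), against 17.7% in P2 (17.7 to 17.7) and 15.4% in P3 (15.4 to 15.5). In all, structural RNA held a higher share in both mutant libraries in each of the 3 compartments, although rRNA had been depleted before sequencing. What remains after depletion depends on the depletion as well as on the rRNA, and the sources used here do not separate these.

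Mitochondrial reads outside tRNA and rRNA were then divided by where and how they aligned. Coding sequences (CDS) took 1971931 of these reads in wild type, against 3126478 in P2 and 2122781 in P3. For each read outside CDS there were 1.52 on CDS in wild type, against 0.889 in P2 and 0.858 in P3. Reads outside CDS, which can include introns, leaders, trailers and spacers, were thus the smaller class in wild type and the larger class in both mutant libraries. Which genes the CDS class covers is not stated in the sources used here. They held 39.6% in wild type (39.6 to 39.7), against 52.9% in P2 (52.9 to 53.0) and 53.8% in P3 (53.8 to 53.9), and how they split among introns and other sequence was not analysed here.

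The alignment classes of the same reads differed as well. Reads that matched more than 1 position of the mitochondrial genome made up 18.2% in wild type (18.2 to 18.3), against 12.3% in P2 (12.3 to 12.4) and 13.1% in P3 (13.1 to 13.1). Wild type had 1.48 times the share of P2 and 1.39 times that of P3. Reads with 1 to 5 mismatched bases made up 8.93% in wild type (8.90 to 8.96), against 17.2% in P2 (17.2 to 17.3) and 6.27% in P3 (6.25 to 6.29). P2 stood above wild type and P3 below it for mismatches, although both carry the same genotype label, and the P2 share was 2.75-fold that of P3. Unmapped reads went the other way, with 1.97% in wild type (1.95 to 1.98), against 1.37% in P2 (1.36 to 1.38) and 2.19% in P3 (2.17 to 2.20). Transcripts of plant mitochondria are edited from C to U at many sites, and an edited read differs from the genome there, but the sheets do not say which mismatches were counted. The part of mismatched or multiply placed reads in the gene levels was not tested.

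**Figure D1:**
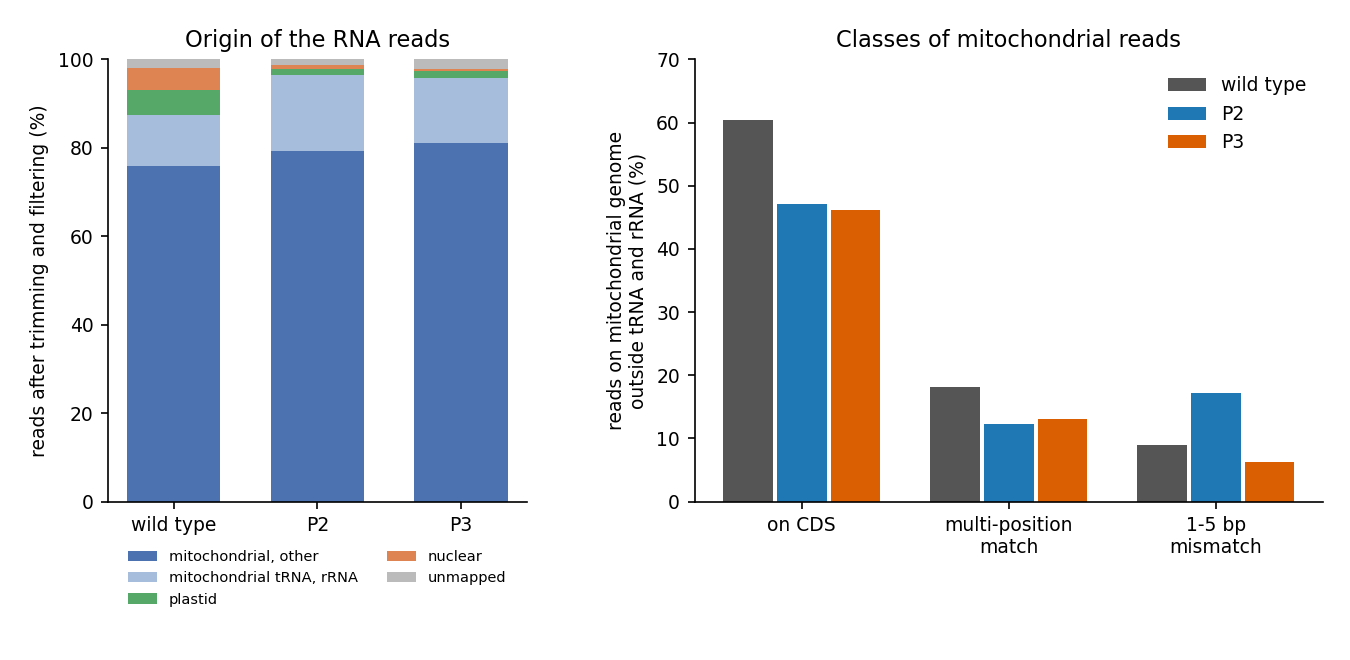
Share of RNA reads by origin (left, % of reads after trimming and filtering, stacked) and of mitochondrial reads outside tRNA and rRNA on CDS, at more than 1 position or with 1 to 5 mismatches (right, %), 1 library per bar. Plastid and nuclear reads take a larger part in wild type than in P2 or P3, the CDS share is 60.4% in wild type against 47.1% in P2 and 46.2% in P3, and the mismatch share is highest in P2 (17.2%).

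The levels of the 24 genes were compared next. Ratios are log2 ratios of TPM over wild type, and a gene is counted as higher or lower when its TPM differ 1.5-fold or more, a log2 ratio of 0.58. By that rule P2 had 14 of 24 genes higher (58.3%) and 2 lower (8.33%), and so did P3, with 14 (58.3%) and 2 (8.33%). All 24 genes are described, so these shares are also the background for any list of them. The ratio of the median gene was 0.84 for P2 and 0.78 for P3, and TPM sum to a fixed total over these genes. Each ratio is therefore also given relative to the median gene, called the centred ratio. After centring, 6 genes (25%) were higher and 7 (29.2%) lower in each mutant library. Scaled instead by the CDS share of mitochondrial reads, P2 had 8 higher genes (33.3%) and 5 lower ones (20.8%), and P3 had 9 (37.5%) and 5 (20.8%). P2 and P3 were both divided by the 1 wild-type library, so an error in that library would appear in both.

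The distribution of levels was flatter in the mutant libraries. In wild type the highest gene, atp9, had 222 times the TPM of the lowest, ccmFN1, against 56.6 times in P2 and 63.2 times in P3, with the same genes at both ends. The SD of log2 TPM over the 24 genes was 2.07 in wild type, against 1.45 in P2 and 1.45 in P3. The 3 highest genes held 54.3% of the summed TPM in wild type (atp9, atp1 and atp6.1), against 39.8% in P2 and 41.9% in P3 (atp9, atp1 and nad9 in both), and 9 genes lay under 10000 TPM in wild type against 5 in each mutant library. The lower 12 genes of each library held 7.54% in wild type, against 17.7% in P2 and 17.0% in P3.

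**Figure D2:**
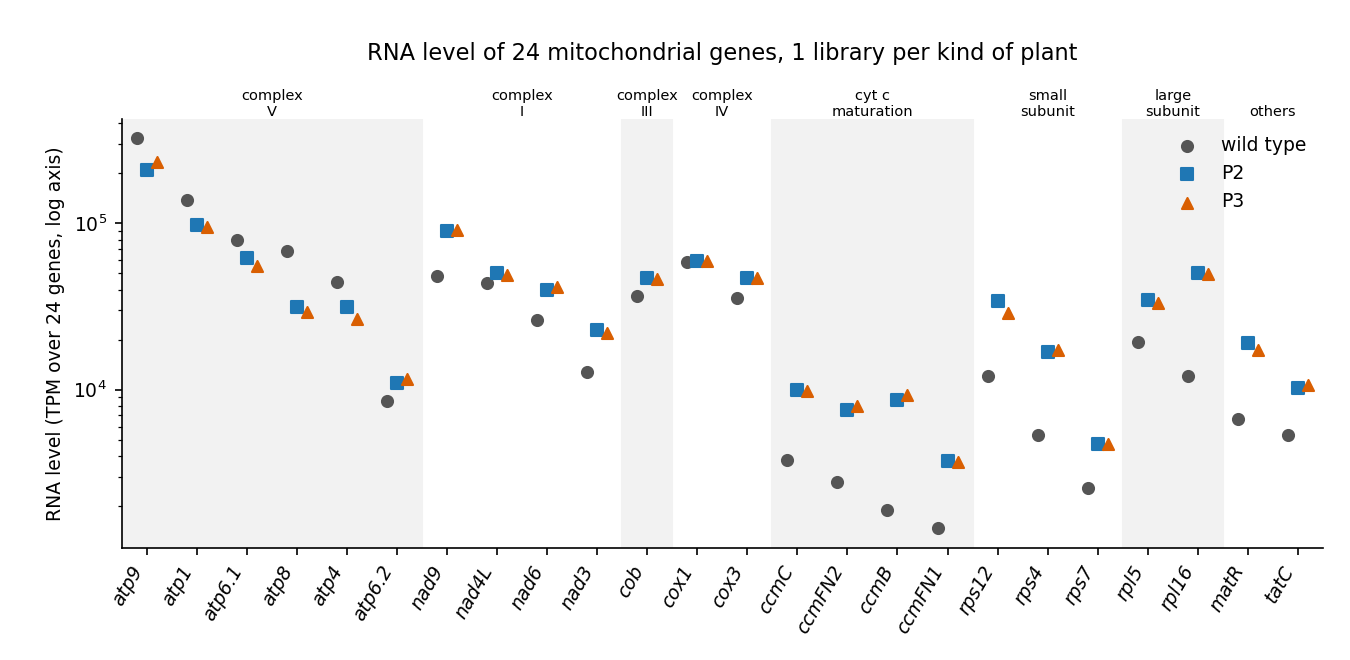
RNA level of each gene in TPM (vertical log axis), grouped by the complex or pathway of its product, with 1 point per library. Points of P2 and P3 lie close together for each gene, below wild type for 5 of 6 genes of complex V and above it for cytochrome c maturation, ribosomal, matR and tatC genes.

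Complex V, the ATP synthase, held the highest levels. Its gene atp9, for the membrane ring subunit c, had 325300 TPM in wild type, against 210135 in P2 and 233015 in P3, and was the first gene in each library. Its gene atp1, for the catalytic-head subunit alpha, had 138579, 97630 and 94861 TPM and ranked second in each. Both had lower levels in the mutant libraries, with log2 ratios of -0.63 in P2 and -0.48 in P3 for atp9 and -0.51 and -0.55 for atp1. The largest difference was that of atp8, for a small membrane subunit, with 68276 TPM in wild type, against 31392 in P2 and 29161 in P3, which took it from rank 4 to ranks 14 and 12. Its log2 ratio was -1.12 in P2 and -1.23 in P3, and its centred ratio was -1.96 and -2.01.

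The peripheral stalk gene atp4 had 44266 TPM in wild type, against 31525 in P2 and 26648 in P3, and went from rank 7 to ranks 13 and 14. Its log2 ratio was -0.49 in P2 and -0.73 in P3, so it passed the 1.5-fold rule in P3 and atp9 passed it in P2, a difference between phenotypes that was not tested. The copies of the gene for proton-channel subunit a differed from each other. Gene atp6.1 had 79439, 61822 and 55462 TPM (log2 ratios -0.36 and -0.52), whereas atp6.2 had 8583, 10892 and 11578 TPM (0.34 and 0.43, but -0.49 and -0.35 when centred). There were 9.26 atp6.1 transcripts per atp6.2 transcript on the TPM scale in wild type, against 5.68 in P2 and 4.79 in P3. The copies share a long stretch of sequence, so reads may have been divided between them by the counting, and multi-position reads were also a smaller share in the mutant libraries. After centring, 5 of 6 genes of complex V were lower in each mutant library, all except atp6.2, against 7 of all 24 genes (29.2%).

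Complex I, the NADH dehydrogenase, was represented by 4 of the 9 genes listed. Gene nad9, for a peripheral-arm subunit, had 48418 TPM in wild type, against 89836 in P2 and 91121 in P3, and moved from rank 6 to rank 3 in both. The membrane-arm genes had 26081, 39610 and 41609 TPM for nad6, 12731, 22714 and 22015 for nad3, and 43620, 50401 and 48949 for nad4L. Of these genes, nad9 (log2 ratio 0.89 in P2 and 0.91 in P3), nad3 (0.84 and 0.79) and nad6 (0.60 and 0.67) were higher by the 1.5-fold rule, and nad4L was not (0.21 and 0.17). Of all 24 genes, 14 (58.3%) were higher by that rule in each mutant library. The centred ratios of nad9 (0.05 and 0.13) and nad3 (-0.003 and 0.008) were close to the median gene. Those of nad6 were -0.24 and -0.11, and those of nad4L were -0.63 and -0.62. By centred ratio, nad4L was the 1 complex I gene past 1.5-fold, and it was lower, against 7 of all 24 genes (29.2%) lower in each mutant library.

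For complex III the 1 mitochondrial gene is cob, for apocytochrome b, with 36828 TPM in wild type, against 46944 in P2 and 46232 in P3, at rank 9 in all 3 libraries. Its log2 ratio was 0.35 in P2 and 0.33 in P3 and turned to -0.49 and -0.45 when centred. For complex IV, the cytochrome c oxidase, cox1 for the heme-bearing core subunit had 58890, 59684 and 59836 TPM, the closest agreement of any gene (log2 ratios 0.02 and 0.02, centred -0.82 and -0.76). Subunit gene cox3 had 35391, 47173 and 47035 TPM (0.41 and 0.41, centred -0.42 and -0.37). These genes of the respiratory chain kept ranks between 4 and 10 in every library, and neither cox3 nor cob passed 1.5-fold on either scale.

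Genes for cytochrome c maturation had low levels in wild type, with ccmFN1 and ccmB the lowest of the 24 genes. By the 1.5-fold rule all 4 were higher in both mutant libraries, against 14 of all 24 genes (58.3%) in each. Gene ccmB, for a membrane subunit of the heme-delivery transporter, had 1884 TPM in wild type, against 8669 in P2 and 9244 in P3, the largest ratio of any gene (4.60-fold in P2 and 4.91-fold in P3). Its centred log2 ratio was 1.36 and 1.51. Gene ccmC, for a protein that presents heme to the carrier, had 3781, 9990 and 9831 TPM. The genes ccmFN2 (2765, 7526 and 7931 TPM) and ccmFN1 (1465, 3711 and 3686 TPM) encode parts of the N-terminal region of the heme lyase, which is split over several genes in Arabidopsis. The fold over wild type of these 3 genes lay between 2.52 and 2.87, well above the median gene (1.79-fold in P2 and 1.72-fold in P3). By centred ratio ccmFN1 missed 1.5-fold in both (0.50 and 0.55) and ccmC in P2 alone (0.56, against 0.60 in P3).

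Ribosomal protein genes were likewise higher in the mutant libraries, with a wide spread among them. In the large subunit, rpl16 had 12136 TPM in wild type, against 50509 in P2 and 49485 in P3, and moved from rank 15 to rank 6 in both (4.16-fold and 4.08-fold). By contrast rpl5 had 19462, 34864 and 33270 TPM (1.79-fold and 1.71-fold), close to the median gene. In wild type there were 0.624 rpl16 transcripts per rpl5 transcript on the TPM scale, against 1.45 in P2 and 1.49 in P3, so their order was inverted. The TAIR10.1 table lists rpl16 as overlapping rps3, and the handling of reads in that overlap is not stated in the labels.

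In the small subunit, rps4 had 5327 TPM in wild type, against 16965 in P2 and 17388 in P3 (3.18-fold and 3.26-fold), and rps12 had 12165, 34086 and 29027 TPM (2.80-fold and 2.39-fold). Gene rps7 had 2561, 4720 and 4707 TPM (1.84-fold in both) and ranked 22 in wild type and 23 in both mutant libraries. After centring, rps4 (0.83 in P2 and 0.92 in P3) and rpl16 (1.22 and 1.25) were past 1.5-fold in both mutant libraries, and rps12 in P2 alone (0.65, against 0.47 in P3). The centred ratios of rps7 (0.04 and 0.10) and rpl5 (0.003 and -0.008) were near 0. The S10 protein belongs to the small subunit, and the measured genes of the small subunit and of the large subunit each included both a gene with a high ratio and one near the median.

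The other genes were matR, for a maturase that helps splice mitochondrial introns, and tatC, for a membrane protein of the twin-arginine export pathway. The level of matR was 6680 TPM in wild type, against 18957 in P2 and 17237 in P3 (2.84-fold and 2.58-fold), and that of tatC was 5370, 10246 and 10672 TPM (1.91-fold and 1.99-fold). Centred log2 ratios were 0.67 and 0.59 for matR and 0.09 and 0.21 for tatC, so that matR passed 1.5-fold in TPM and after centring, and tatC in TPM but not after centring. Scaled by the CDS share of mitochondrial reads, tatC had log2 ratios of 0.57 in P2 and 0.60 in P3, just under and just over 1.5-fold. Of the 33 genes listed by role, 9 had no TPM here: nad1, nad2, nad4, nad5, nad7, cox2, ccmFC, rps3 and rpl2. As background, each of these 9 carries introns in Arabidopsis, so the levels of these intron-bearing genes are not known here. Whether reads on the measured genes came in part from longer or unspliced transcripts was not analysed.

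**Figure D3:**
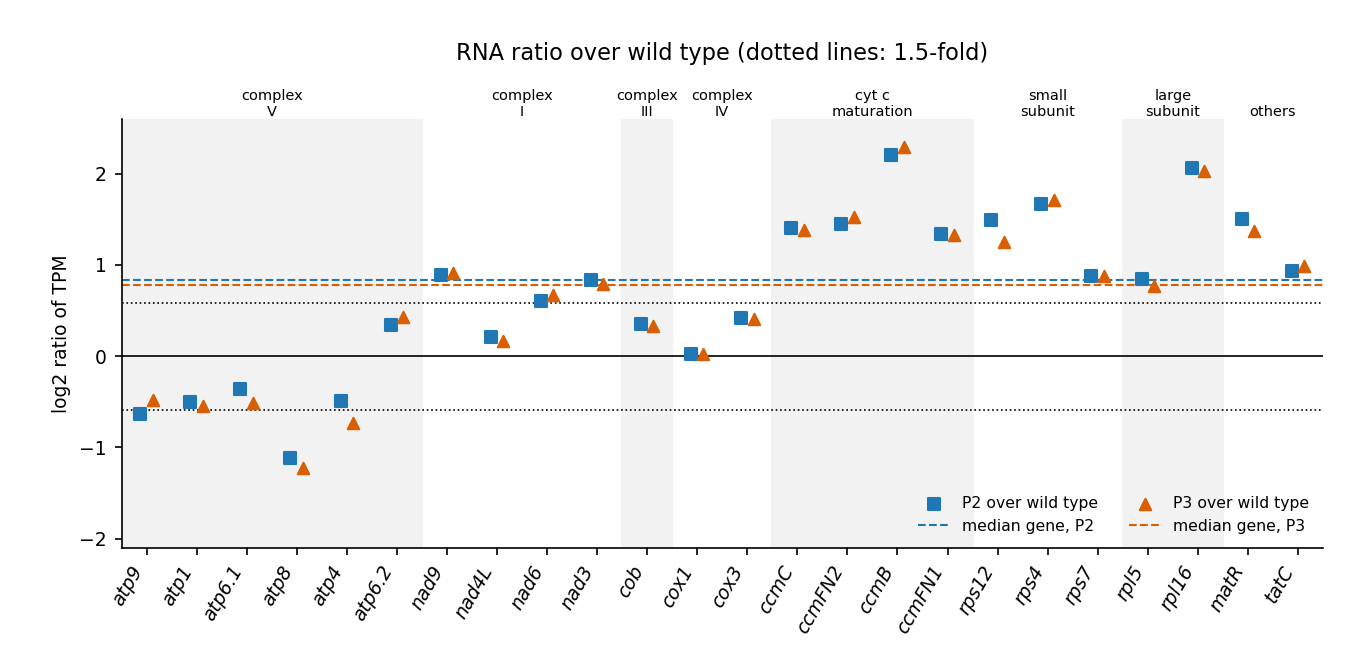
Log2 ratio of TPM over wild type for each gene in P2 (squares) and P3 (triangles), 1 library each, with dotted lines at 1.5-fold and dashed lines at the median gene (0.84 in P2 and 0.78 in P3). atp8 is lowest (-1.12 and -1.23) and ccmB highest (2.20 and 2.29), and nad3, nad9, rpl5, rps7 and tatC lie near the dashed lines.

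Ratios between genes of the same library do not depend on the scaling and were compared in 3 neighbouring pairs, defined as genes at most 1000 bases apart in the TAIR10.1 gene table, whose strand it does not give. nad3 and rps12 lay nearly level in wild type (1.05 nad3 per rps12 on the TPM scale), against 0.666 in P2 and 0.758 in P3. nad4L and atp4 were also level in wild type (0.985), against 1.60 in P2 and 1.84 in P3. For rpl16 and nad9 the ratio was 0.251 in wild type, against 0.562 in P2 and 0.543 in P3. In all 3 pairs the neighbours thus differed from each other by 1.38-fold or more in their ratio to wild type.

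Further pairs within and across complexes were chosen after their values were seen. The ratio of atp9 to atp1 was 2.35 in wild type, against 2.15 in P2 and 2.46 in P3, so wild type lay between the mutant libraries. The ratio of atp1 to atp8 was 2.03, 3.11 and 3.25, so atp8 was lower relative to atp1 in both mutant libraries. For nad9 and nad4L it was 1.11, 1.78 and 1.86, and for cox1 and cox3 it was 1.66, 1.27 and 1.27. Across groups, rpl16 had 0.178 of the atp8 level in wild type and 1.61 and 1.70 times that level in P2 and P3, a 9.05-fold and 9.55-fold difference between genes at or near opposite ends of the ratios. The other pairs taken across groups moved less, by 7.12-fold and 6.85-fold for ccmB over atp9 and by 1.97-fold and 1.75-fold for cob over atp9.

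**Figure D4:**
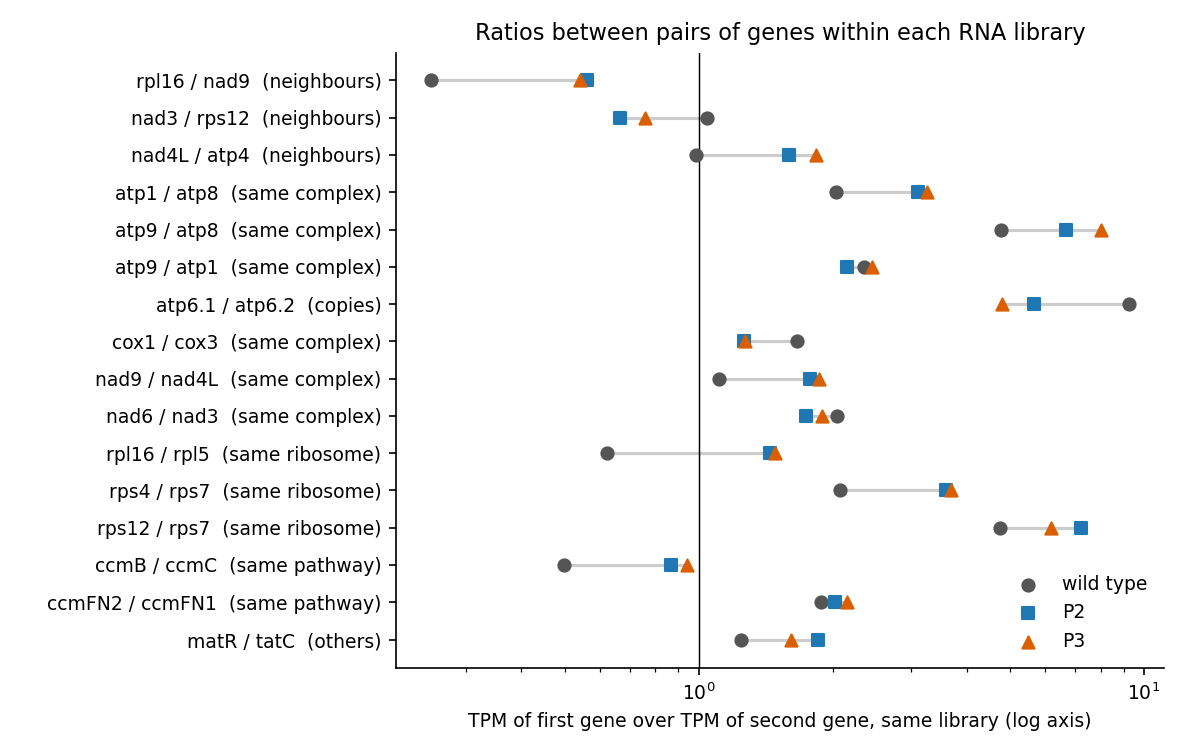
TPM of one gene over TPM of another in the same library (log axis) for neighbouring genes, for the atp6 copies and for members of the same complex, ribosome, pathway or the group of others, with 1 point per library. The mutant points lie close together and apart from wild type for rpl16 over rpl5 (0.624, 1.45 and 1.49), while atp9 over atp1 (2.35, 2.15 and 2.46) has wild type between them.

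P3 was set beside P2 to show how far apart the 2 mutant libraries lay without wild type. No gene was 1.5-fold apart. Log2 ratios of P3 over P2 ran from -0.24 (atp4) to 0.15 (atp9), with an SD over genes of 0.098, and the next lowest was rps12 (-0.23). In rank, 17 of 24 genes held the same place in P2 and P3 and 23 were within 1 place. The size of the largest P3 to P2 difference (1.18-fold) was exceeded over wild type by 22 genes in each mutant library, all except cox1 and nad4L. After centring, the largest P3 to P2 difference was 1.17-fold, and 19 genes in P2 and 18 in P3 exceeded it. These phenotypes are not replicates of each other, the difference between them holds any true difference, and no comparable pair of wild-type libraries exists here.

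The ratio over wild type also went with the level of a gene. The 8 genes with the highest mean TPM over the 3 libraries (atp1, atp6.1, atp9, cob, cox1, cox3, nad4L and nad9) had a median log2 ratio of 0.11 in P2 and 0.09 in P3. The 8 in the middle had 0.84 and 0.78, and ranged from atp8 to rpl16. The 8 lowest (atp6.2, rps4, rps7, tatC and the 4 cytochrome c maturation genes) had 1.37 and 1.35. Of these, 7 of 8 were higher by the 1.5-fold rule in each mutant library, all except atp6.2, against 14 of all 24 genes (58.3%). After centring, 3 of the 8 were higher in P2 and 4 in P3, against 6 of all 24 genes (25%) in each. The mean includes the wild-type level, which also stands in the ratio, and level goes with role among these genes, so the part of level and the part of role were not told apart.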

How the data were processed

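STAR and featureCounts are the tools named in the submitters' processing notes, with no version, genome build, annotation or handling of multi-position reads. The authors gave gene levels in TPM, per the file headers, which cover 24 mitochondrial genes and sum to 1000000 in each library, so the depth behind a gene is unknown. Whole numbers of reads per class were deposited in a summary sheet per library, per the file headers. The fraction deposited beside each number equals that number over the first number of its block. Samples were grouped by library titles, with 1 library per group, and footprint files were not used. Log2 ratios had no pseudocount, since no TPM was 0. Centred ratios subtract the median gene (median-of-ratios scaling). CDS-share scaling multiplies TPM by the CDS share of mitochondrial reads outside tRNA and rRNA. It takes the CDS count to stand for the 24 genes with TPM, which was not checked. Read shares carry 95% Wilson intervals. Python 3.11.15, pandas 2.3.3, scipy 1.17.1 and matplotlib 3.10.9 were used, and the arithmetic was tested on simulated data. The TAIR10.1 table held all 24 gene names, 3 of them under another name, and was used for names, neighbours and overlaps. All 24 genes are named. Members, lists by role and alternatives were chosen with earlier results of these data known, and pairs of genes within and across complexes after their values were seen.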

Additional observations from a re-analysis of the deposited data

Results flagged for a closer look

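P2 and P3 lay on opposite sides of wild type for a pair of read classes, with 1 library each, so the difference was not tested. The share of mitochondrial reads with 1 to 5 mismatched bases was 1.93 times the wild-type share in P2 and 0.702 times in P3. The share of unmapped reads was 0.696 times the wild-type share in P2 and 1.11 times in P3. In TPM, no gene had ratios over wild type of opposite sign in P2 and P3 (0 of 24). With other scalings some genes near 0 did, among them nad3 (-0.003 and 0.008) and rpl5 (0.003 and -0.008) after centring and atp6.2 (-0.016 and 0.045) with the CDS share of mitochondrial reads.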

How the results depend on the processing

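Counts of genes moved with the scaling. With median-of-ratios scaling 6 genes were higher and 7 lower in each mutant library, with the CDS share of mitochondrial reads 8 and 5 in P2 and 9 and 5 in P3, and with the CDS share of all reads 5 were lower in each. Without the most abundant gene, atp9, 4 were lower in each, and at 2-fold 8 were higher and 1 lower in each. For P2 and P3, median-of-ratios scaling gave a complex I median of -0.12 and -0.050, against 0.36 and 0.34 with the CDS share of mitochondrial reads, 0.42 and 0.44 with the CDS share of all reads and 0.49 and 0.55 without atp9. The complex III median was -0.49 and -0.45 with median-of-ratios scaling, against -0.0091 and -0.059 with the CDS share of mitochondrial reads. For complex IV it was -0.62 and -0.57 with median-of-ratios scaling, -0.14 and -0.17 with the CDS share of mitochondrial reads, -0.078 and -0.075 with that of all reads and, in P2, -0.010 without atp9. For complex V it was -1.34 and -1.31 with median-of-ratios scaling, -0.86 and -0.92 and -0.79 and -0.82 with the same CDS shares, -0.72 and -0.73 without atp9 and, in P3, -0.61 without atp6.1, atp6.2 and rpl16. With median-of-ratios scaling the median of matR and tatC was 0.38 and 0.40 and that of the small subunit in P3 was 0.47. The same scaling turned cox1 to -0.82 and -0.76, nad4L to -0.63 and -0.62, nad6 to -0.24 and -0.11, nad3 in P2 to -0.0029 and rpl5 in P3 to -0.0083. Median-of-ratios and CDS-share scaling each shift all ratios of a comparison by 1 constant, whereas leaving out genes also changes the members behind a median. Single gene ratios kept their direction and side of 1.5-fold in 241 of 324 values over the settings. These settings include a filter at a mean of 5000 TPM, which leaves the ratio of each kept gene unchanged by construction. They also include a pseudocount of 100 TPM, which is small beside most levels. The count is therefore not a measure of stability under rescaling.

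Relative to mitochondrial reads outside tRNA and rRNA, the plastid share in P2 and P3 was 0.219 and 0.213 times that of wild type, the nuclear share 0.154 and 0.0888 times and the CDS share 0.780 and 0.765 times. Relative to mapped reads the CDS share was 0.810 and 0.819 times, and the mitochondrial tRNA and rRNA share 1.48 times in P2. Relative to all mitochondrial reads the mitochondrial tRNA and rRNA share was 1.35 and 1.18 times. A share weighted by coding length was not run, because the labels do not state which gene models were used. No paired analysis was possible because each group had 1 library. No setting can supply the missing spread between libraries.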
